A study of Medicago truncatula with 9 samples.

Results

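Alkali-treated seedlings of Medicago truncatula were compared with seedlings grown in distilled water through every known and predicted miRNA that the study counted, in 6 of its 9 small RNA libraries. The seeds of genotype R108 were germinated on filter paper in Petri dishes, and entire seedlings were harvested after 72 h. The 3 alkali libraries (AS1, AS2 and AS3) came from a mixture of Na2CO3 and NaHCO3 at 5 mM, and the 3 distilled water libraries (DW1, DW2 and DW3) from water with no added salt. The 3 salt libraries (SS1, SS2 and SS3), from a mixture of NaCl and Na2SO4 at 20 mM, entered for a direct comparison of the treatments and for the estimate of the spread. The 3 libraries of a condition are described as biological replicates, while the growth protocol describes 1 dish for each condition, so p-values measure the spread between seedling samples that may have shared a dish. Of the 905 entries counted, 684 are known miRNAs (named mtr-miR) and 221 were predicted by the authors (named unconservative). Of these, 647 had enough reads for a test, 451 known and 196 predicted.

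A plant miRNA is cut from a folded precursor as a duplex of a 5p and a 3p arm. One arm is usually loaded into an Argonaute protein, where it pairs with a target mRNA and leads to its cleavage or to less translation. The conserved families repress transcription factors of development, transporters and enzymes of mineral nutrition, and parts of the miRNA machinery itself. In legumes, several families also target disease resistance genes of the NBS-LRR class. Small RNAs of the longer length class are in plants mostly siRNAs that direct DNA methylation at repeats, and annotated miRNAs of that length can be of this kind. The seedlings were sequenced whole, so fewer cells of a type and less of a miRNA per cell cannot be told apart.

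The mature sequences of the miRNAs that carry the comparison are shown first, taken from the study's own sequence tables, which hold 69 of the 71 known miRNAs called here. Capitals mark the seed, bases 2 to 8 counted from the 5′ end. The first set had more reads in alkali. The lines of miR395 share the seed UGAAGUG, which all 12 called miR395 entries have. mtr-miR156a and mtr-miR156b-5p share GACAGAA, miR160 carries GCCUGGC, and miR5211 and miR5232 share their seed with no other called miRNA.
mtr-miR5211: uCGCAGGAgugaugggaccggc
mtr-miR395a: aUGAAGUGuuugggggaacuc
mtr-miR395g: uUGAAGUGuuugggggaacuc
mtr-miR5232: uACAUGUCgcucucaccugaa
mtr-miR156a: uGACAGAAgagagagagcaca
mtr-miR156b-5p: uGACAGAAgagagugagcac
mtr-miR156b-3p: uGCUCACUcucuaucugucacc
mtr-miR156i-3p: uGCUCACUucucuuucugucauc
mtr-miR160e: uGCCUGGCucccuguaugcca
mtr-miR169c: cAGCCAAGggugauuugccgg
mtr-miR5749: uUCGGGUUgauaauauuuucuu

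The second set had fewer reads in alkali, and its sequences differ more from each other. For mtr-miR398a-3p and mtr-miR171e-3p a relative with the same seed that did not fall is printed beneath.
mtr-miR398a-3p: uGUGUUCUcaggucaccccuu
mtr-miR398b: uGUGUUCUcaggucgccccug
mtr-miR398a-5p: gGAGUGACacugagaacacaag
mtr-miR171e-3p: aGAUUGAGccgcgccaauauc
mtr-miR171d: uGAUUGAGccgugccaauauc
mtr-miR5208d: cAUAUUAGucauauuuguaggcau
mtr-miR5207: cAUUAAUGuggguuuggacgguu
mtr-miR2628: cAUGAAAGaaugaugaguaa
Over the 30 distinct sequences of the higher miRNAs, 20 began with U, 5 with C, 3 with A and 2 with G. Over the 15 distinct sequences of the lower ones, 8 began with C, 4 with U, 2 with G and 1 with A. First bases of the uncalled miRNAs were not counted, so no trait particular to the called ones follows. In Arabidopsis the first base takes part in the choice of the Argonaute protein, with U favoured by AGO1. Argonaute loading was not measured here.

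The total of miRNA counts was 4135854 to 6503979 per alkali library, 3918174 to 7191272 per salt library and 3746957 to 4554748 per distilled water library. Levels are given as counts per 1000000 on the TMM scale (CPM). The TMM factors were 0.768, 0.867 and 0.953 in AS1, AS2 and AS3, and 1.35, 1.1 and 1.07 in DW1, DW2 and DW3. All alkali factors were below all distilled water factors. Every alkali level was thereby raised against distilled water, compared with a plain share of counts. No fit used plain library totals as the scale. AS1 and DW1 also stood at the ends in the yield of miRNA counts, at 19.9 per 100 clean reads in AS1 and 9.45 in DW1, and on the first principal component, at 15.5 and -13.7. Whether the yield has a part in the results was not tested.

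In alkali 56 miRNAs were higher and 55 lower than in distilled water, with calls made where the fold change exceeded 1.5 and the p from edgeR's quasi-likelihood test, adjusted by Benjamini-Hochberg over the 647 miRNAs, was below 0.05. This is 8.66% of the miRNAs tested in the higher direction, 8.5% in the lower and 17.2% in all. The 111 entries hold 94 distinct count profiles, since entries with the same mature sequence can have the same counts. A change over 2-fold was seen for 28 of the higher entries and for 18 of the lower ones. The libraries of both conditions did not overlap for 51 of the 56 and 42 of the 55, and for 34.6% of all miRNAs tested. The balance of the directions differed between the fits. DESeq2 differs from the main fit in its test and its entries as well as in its scaling. It was 88 higher and 36 lower with DESeq2, 82 and 47 with DESeq2's size factors in edgeR, and 35 and 76 with the libraries scaled by their clean reads. Leaving out AS1 gave 31 higher and 18 lower, leaving out AS3 68 and 105, leaving out DW1 44 and 14, leaving out DW2 45 and 22, and leaving out DW3 106 and 96. With AS1 and DW1 both left out, 28 were higher and 14 lower. Of the 111 calls, 20 passed in every one of 18 other fits, 13 of them higher and 7 lower.

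Length separated the directions. Of the 403 miRNAs of 18 to 22 nt tested, 54 were higher and 10 lower, with a median log2 fold change of 0.18. Of the 244 miRNAs of 23 to 24 nt, 2 were higher and 45 lower, with a median of -0.46. Over all miRNAs tested, 8.66% were higher and 8.5% lower, with a median of -0.17. The known and predicted entries of the longer class had the same picture: 1 of 100 known entries was higher and 15 were lower, and 1 of 144 predicted entries was higher and 30 were lower. The medians of both classes had the same sign in all 18 other fits, from 0.08 to 0.33 for the shorter class and from -0.54 to -0.23 for the longer one. None of these fits used plain library totals as the scale. The number of lower entries of 23 to 24 nt was less stable, at 12 without AS1, 7 without DW1, 17 without DW2, 87 without DW3 or without AS3, and 6 without AS1 and DW1. The higher entries of 18 to 22 nt numbered 30 without AS1, 105 without DW3 and 26 without AS1 and DW1.

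**Figure D1:**
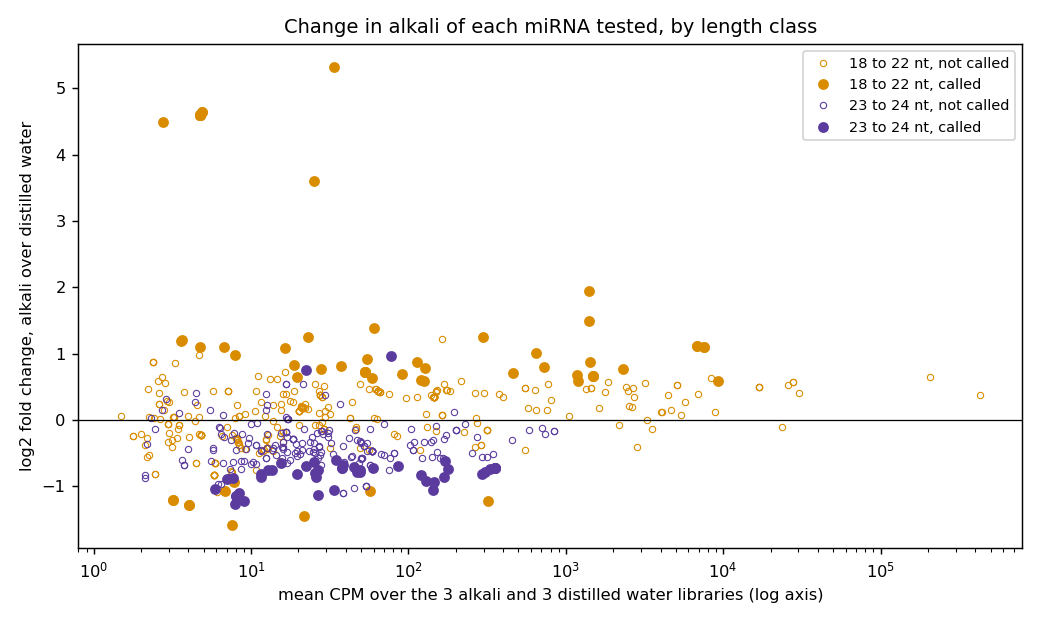
Log2 fold change of each of the 647 miRNAs in alkali over distilled water (vertical) against its mean CPM over the 6 libraries (horizontal, log axis), with orange for 18 to 22 nt, purple for 23 to 24 nt and filled points for called miRNAs. Filled orange points lie mostly above 0 (54 higher, 10 lower) and filled purple points mostly below it (2 higher, 45 lower).

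The share of the miRNA counts that fell to entries of 23 to 24 nt was 1.02%, 1.31% and 1.6% in AS1, AS2 and AS3, and 3.06%, 2.27% and 1.84% in DW1, DW2 and DW3. All 3 alkali libraries were below all 3 distilled water libraries, and AS3 and DW3 were the closest pair. The salt libraries were at 1.85%, 1.5% and 1.85%. Within the alkali, the salt and the distilled water libraries alike, the order of this share was the reverse of the order of the miRNA yield. In salt, SS1 (1.847%) and SS3 (1.854%) were nearly equal. Over all 9 libraries only AS3, with a yield of 12.7 per 100 clean reads, was out of this order. The total of miRNA counts is the denominator of this share and the numerator of the yield. A reverse order of both is therefore in part built in and is no result of its own. Whether the yield has a part in the shares beyond this was not tested.

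**Figure D2:**
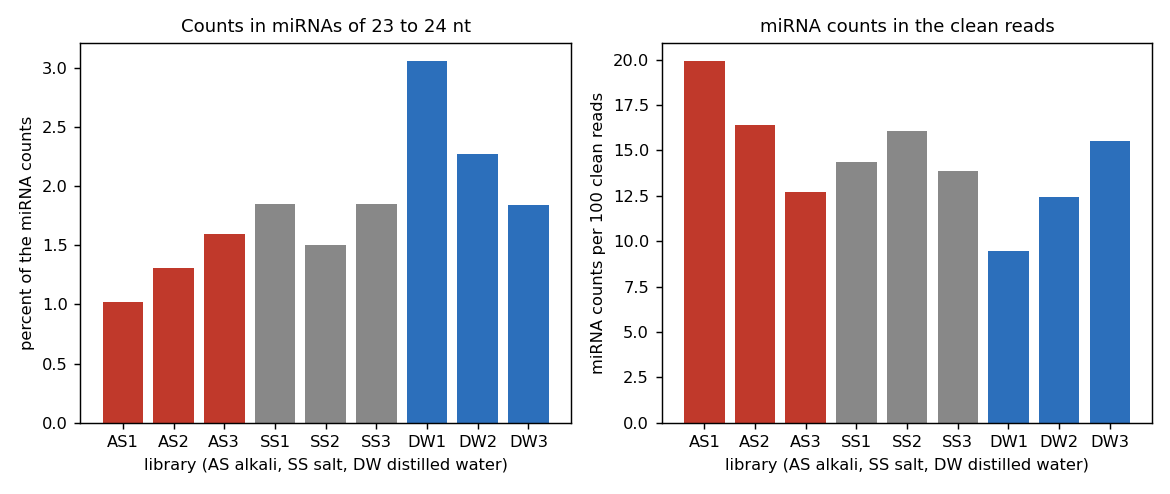
Left, the percent of each library's miRNA counts in entries of 23 to 24 nt; right, the miRNA counts per 100 clean reads, with alkali in red, salt in grey and distilled water in blue. The share is lowest in AS1 (1.02%) and highest in DW1 (3.06%), and the yield is highest in AS1 (19.9) and lowest in DW1 (9.45). Both measures contain the total of miRNA counts, so a reverse order is in part built in.

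The called miRNAs also differed in level. The higher ones had a median of 53.1 CPM over the 6 libraries and reached 9269 CPM, and 14 of the 56 were above 1000 CPM. The lower ones had a median of 26.8 CPM and none exceeded 356.6 CPM. The median over all miRNAs tested was 24.8 CPM.

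mtr-miR5211, a 22-nt miRNA of Medicago whose function is not well described, had the largest change. It had 76.5, 52.5 and 67.0 CPM in the alkali libraries and 1.19, 1.61 and 2.05 CPM in the distilled water libraries. The groups were far apart, and no distilled water library held more than 10 reads of it. The fold change was 39.95, a log2 fold change of 5.32 (standard error 0.283, adjusted p = 2.04e-12 from edgeR). In salt it was at 70.4 to 95.5 CPM, and the alkali and salt libraries overlapped.

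miR395 had the largest changes of the conserved families. It represses ATP sulfurylases and a sulfate transporter, and in Arabidopsis it is induced when sulfate is short. The 12 entries that were tested had log2 fold changes of 3.60 to 4.65, with only 4 distinct count profiles and 2 mature sequences among them. Apart from mtr-miR395a, these entries passed the filter on low counts only through the alkali libraries, so being tested already required them to be high there, and their number is no support of its own. mtr-miR395a, the member with the most reads, had 63.9, 38.0 and 38.3 CPM in alkali and 2.965, 2.75 and 5.73 CPM in distilled water. The lowest alkali library was thus well above the highest distilled water library, and AS1 was the highest of the 6. The log2 fold change was 3.60 (standard error 0.291, adjusted p = 5.45e-09 from edgeR). mtr-miR395c, with the same mature sequence but its own count, had 13.6, 7.45 and 7.11 CPM in alkali and 0, 0.918 and 0.205 CPM in distilled water. It rested on 136 reads in the 3 alkali libraries and 5 in the 3 distilled water libraries, a ratio of 27.0 with an exact 95% interval of 11.3 to 84.4 that covers counting error only. mtr-miR395g, with the other sequence, rested on 77 reads in alkali and 3 in distilled water, a ratio of 25.4 (8.39 to 126). The 3 untested members held 62 reads in the alkali libraries and 4 in the distilled water libraries. With a filter of 100 reads in 3 libraries only mtr-miR395a was tested, and it was called.

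mtr-miR5232, a 21-nt miRNA of Medicago, had 2594, 2185 and 1929 CPM in alkali and 451.3, 581 and 705 CPM in distilled water. Every alkali library was above every distilled water library, and the log2 fold change was 1.95 (standard error 0.211, adjusted p = 8.8e-07 from edgeR). unconservative_1_30619, a predicted 21-nt miRNA, had 2442, 1811 and 1952 CPM in alkali and 629, 682 and 893 CPM in distilled water. Its log2 fold change was 1.49 (standard error 0.192, adjusted p = 1.3e-05 from edgeR). The less abundant unconservative_8_14353 rose by 1.38 on the log2 scale, with 72.0 to 104 CPM in alkali and 28.7 to 38.9 CPM in distilled water, and mtr-miR5749 rose by 0.87, with 113 to 169 CPM and 67.2 to 93.7 CPM. These 4 miRNAs are among the 20 calls that passed in every fit. unconservative_3_41992 had 52.6, 27.0 and 18.3 CPM in alkali and 10.7, 12.4 and 18.01 CPM in distilled water, so that AS3 hardly exceeded DW3, and its call (log2 fold change 1.26) was lost without AS1 or without DW2.

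**Figure D3:**
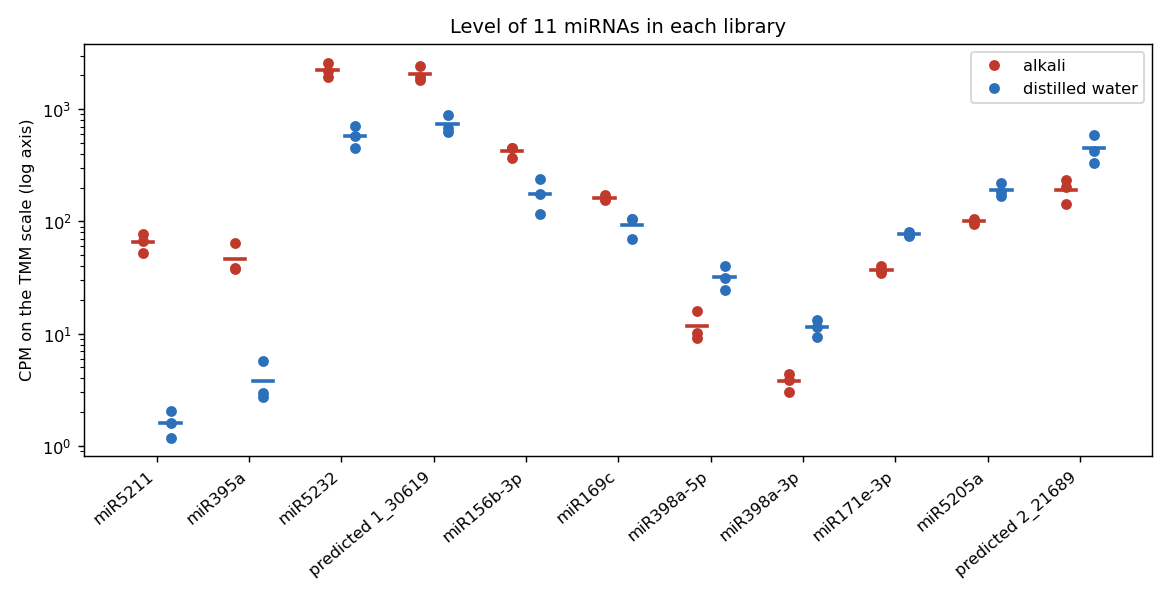
Level of 11 miRNAs in each library (CPM on the TMM scale, log axis), with 1 point per library, alkali in red on the left and distilled water in blue on the right of each name, and bars at the means. The points of both conditions do not overlap for any of the 11, and miR5211 shows the widest gap, at 52.5 to 76.5 CPM in alkali and 1.19 to 2.05 CPM in distilled water.

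miR156, which represses SPL transcription factors and holds seedlings in the juvenile phase, was the largest group of risers among the conserved families. Of its 16 members, all tested, 13 were higher and none was lower, where 8.66% and 8.5% of all miRNAs tested were. The median log2 fold change was 0.81, and the 13 hold 11 distinct count profiles. The number of higher members was 8 without AS1 or without DW1, and 7 with the libraries scaled by clean reads or without AS1 and DW1. mtr-miR156b-5p had 11810.2, 8805 and 7509 CPM in alkali and 3159, 4093 and 5764 CPM in distilled water. The groups did not overlap, while within each of them the libraries differed widely, with AS1 the highest and DW1 the lowest of all 6. Its log2 fold change was 1.11 (standard error 0.24, adjusted p = 0.0027 from edgeR). mtr-miR156c-5p has the same sequence and the same counts, and the 5p arms of miR156d and miR156i carry that sequence as well, so these 4 entries are not separate measurements. mtr-miR156a, 1 base longer and with its own 3′ end, had 1172, 814 and 616 CPM in alkali and 320.2, 358.8 and 608 CPM in distilled water, which leaves AS3 and DW3 next to each other, and its call was lost without AS1 and DW1.

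Of the 6 tested 3p arms of miR156, those of miR156b, miR156c, miR156h and miR156i were higher, and those of miR156d and miR156g were not called. mtr-miR156b-3p had 447, 447 and 369.7 CPM in alkali and 116, 174 and 238 CPM in distilled water, a log2 fold change of 1.26 (standard error 0.213, adjusted p = 0.000205 from edgeR). mtr-miR156i-3p had 96.3, 97.6 and 114 CPM in alkali and 48.2, 53.5 and 56.5 CPM in distilled water, so the groups lay well apart. Its log2 fold change was 0.96 (standard error 0.166), and it was 1 of the only 2 miRNAs of 23 to 24 nt that were higher. Both passed in every fit. mtr-miR156e, with the same sequence as mtr-miR156f and mtr-miR156h-5p, was at 1433 to 2394 CPM in alkali and 849 to 1596 CPM in distilled water. The groups overlapped, and its call (log2 fold change 0.66, adjusted p = 0.0465 from edgeR) was lost in 12 of the 18 other fits. The most abundant member, mtr-miR156g-3p, was at 40506.3, 36260.8 and 26883 CPM in alkali and 18439, 27391 and 31969 CPM in distilled water, and did not pass (log2 fold change 0.41, adjusted p = 0.171 from edgeR).

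miR172, which represses AP2-like factors and in Arabidopsis takes over as miR156 declines, was close to the limit of detection. The 2 tested entries, mtr-miR172b and mtr-miR172c-3p, have the same counts, 11, 12 and 5 reads in alkali and 16, 15 and 33 in distilled water, and were called lower (log2 fold change -1.20, adjusted p = 0.048 from edgeR). The call was lost in 16 of the 18 other fits, among them each one that left out any 1 library. The 4 untested miR172 entries held 16 reads in alkali and 11 in distilled water.

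Among families that act on auxin responses (miR393, miR390, miR167, miR164 and miR160), 6 of 14 tested members were higher and none was lower. Over all miRNAs tested, 8.66% were higher and 8.5% lower. The median log2 fold change of the 14 was 0.52, and the 6 hold 5 distinct count profiles. miR160 and miR167 repress auxin response factors. mtr-miR160e was at 75.1, 69.2 and 54.1 CPM in alkali and 39.9, 35.3 and 44.4 CPM in distilled water. The groups did not overlap, and the log2 fold change was 0.73 (standard error 0.199, adjusted p = 0.0153 from edgeR). All 4 called miR160 entries have this sequence. mtr-miR167b-5p, the most abundant of the list, was at 10987, 10752 and 11658 CPM in alkali and 5779, 7206 and 9232 CPM in distilled water, with the spread almost wholly among the distilled water libraries. Its fold change of 1.503 lies at the threshold, and its call (adjusted p = 0.0425 from edgeR) was lost in 14 of the 18 other fits. Without AS1 none of the 14 was called, and without DW3 9 were.

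miR169 represses NF-YA subunits, transcription factors that bind CCAAT boxes. Of its 6 tested members 3 were higher and none lower, where 8.66% and 8.5% of all miRNAs tested were. The median log2 fold change was 0.88, and 1 member was higher without AS1, AS2 or DW1. mtr-miR169c was at 154, 174 and 157 CPM in alkali and 70.2, 106 and 105 CPM in distilled water. The alkali libraries lay close together and above all distilled water libraries, with a log2 fold change of 0.79 (standard error 0.191, adjusted p = 0.00677 from edgeR) that passed in every fit. The other called members, mtr-miR169b and mtr-miR169l-5p, share 1 sequence and are rare. mtr-miR169l-5p was at 6.03 to 6.85 CPM in alkali and 1.38 to 4.82 CPM in distilled water, and its call (adjusted p = 0.0491 from edgeR) was lost in 10 of the 18 other fits.

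Members of miR171, which represses GRAS factors of the HAM type, moved in both directions. mtr-miR171e-3p fell, to 39.8, 34.8 and 36.5 CPM in alkali, against 74.5, 76.4 and 81.0 CPM in distilled water. This was among the clearest separations of the comparison, with a log2 fold change of -1.06 (standard error 0.183, adjusted p = 0.000237 from edgeR), and it passed in every fit. mtr-miR171d and mtr-miR171b, with the same seed, had log2 fold changes of 0.54 each and did not pass both thresholds. mtr-miR171f, whose seed lies further along the same stretch of sequence, was higher, at 66.5 to 77.6 CPM in alkali and 36.5 to 58.3 CPM in distilled water (log2 fold change 0.63, adjusted p = 0.0242 from edgeR). That call was lost in 7 of the 18 other fits, among them those without AS1, without DW1 and without DW2.

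Of the miRNAs that target NBS-LRR resistance genes, 2 of 9 were higher, both arms of miR1510b, where 8.66% of all miRNAs tested were higher. The number was 6 without DW3 and 1 without AS1, and none was higher without AS1 and DW1 or with clean reads as the scale. mtr-miR1510b-3p was at 3374, 2592 and 2823 CPM in alkali and 1331, 1716 and 2091 CPM in distilled water (log2 fold change 0.77, adjusted p = 0.00931 from edgeR). mtr-miR1510b-5p had a log2 fold change of 0.88 (adjusted p = 0.0175 from edgeR), a call lost without AS1 or without DW2. Both arms of miR1510a stood higher in each alkali library than in any distilled water library, but neither was called. mtr-miR1510a-3p missed the 1.5-fold threshold alone (fold change 1.47, adjusted p = 0.033 from edgeR). mtr-miR1510a-5p missed both thresholds (fold change 1.40, adjusted p = 0.0601 from edgeR).

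The copper miRNAs, which repress copper proteins such as laccases, plantacyanins and copper superoxide dismutases and rise when copper is short, were split. miR398a fell in both arms. mtr-miR398a-5p had 10.1, 9.23 and 16.0 CPM in alkali and 31.0, 24.3 and 39.7 CPM in distilled water, and mtr-miR398a-3p had 4.33, 3.90 and 3.05 CPM in alkali and 11.5, 9.41 and 13.3 CPM in distilled water. Each alkali library was below each distilled water library for both. The log2 fold changes were -1.45 (standard error 0.245, adjusted p = 0.000205) and -1.58 (standard error 0.289, adjusted p = 0.000467) from edgeR. mtr-miR398b has the seed of mtr-miR398a-3p and more reads, yet was at 51.2, 35.3 and 43.4 CPM in alkali and 33.4, 48.0 and 45.0 CPM in distilled water, with overlapping libraries. Its log2 fold change of 0.04 (standard error 0.215, adjusted p = 0.894 from edgeR) had the other sign in 5 of the 18 other fits, with libraries scaled by clean reads among them. mtr-miR408-3p (log2 fold change -0.50) and mtr-miR397-5p (-1.08) did not pass either (adjusted p = 0.157 and 0.0575 from edgeR).

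**Figure D4:**
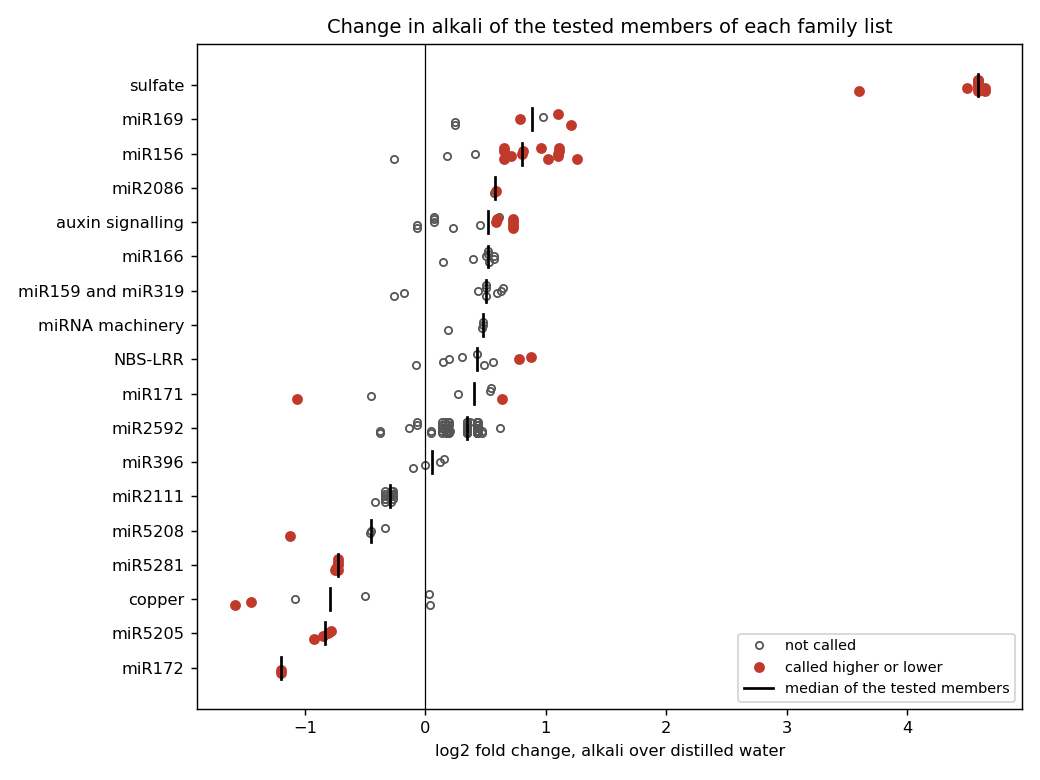
Log2 fold change in alkali over distilled water of each tested member of the family lists, ordered by the median (black bar), with filled red points for members called higher or lower and open points for the rest. The 12 miR395 members (sulfate) lie at 3.60 to 4.65, miR156 has 13 filled points above 0, and all members of miR5205 and miR5281 lie below 0.

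Most of the lower known miRNAs were of 23 to 24 nt and belong to families described in Medicago. All 4 miR5205 members and all 6 miR5281 members were lower, with medians of -0.83 and -0.72, where 8.5% of all miRNAs tested were lower. Of the miR5281 entries 5 carry 1 sequence, and mtr-miR5205c and mtr-miR5205d share another, so the members are not all separate measurements. mtr-miR5205a had 95.7, 99.5 and 106 CPM in alkali and 221, 182 and 168.01 CPM in distilled water, a log2 fold change of -0.93 (standard error 0.172, adjusted p = 0.000527 from edgeR). mtr-miR5205b was at 106 to 130 CPM in alkali and 185 to 257 CPM in distilled water, with a log2 fold change of -0.85. These calls passed in every fit. mtr-miR5205d was at 178 to 252 CPM and 324 to 452 CPM, and mtr-miR5281b, the most abundant of its family, at 235, 269 and 304.3 CPM in alkali and 532, 399.6 and 399.9 CPM in distilled water. The alkali libraries were below the distilled water libraries for both, and DW1 was the highest. Without DW1 only 2 of the 4 miR5205 members were called, and none of the 6 miR5281 members, of which 1 was called without AS1.

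The called sequences of miR5205 and miR5281 share the stretch CGGAGG, the longest that all of them hold. It is in capitals in these lines.
mtr-miR5205a: cauacaauuugggaCGGAGGgag
mtr-miR5205b: cuuauaauuagggaCGGAGGgagu
mtr-miR5205d: cuuauaauuagggaCGGAGGuagu
mtr-miR5281b: ucuuauaaauaggacCGGAGGgag
mtr-miR5281a: cucuuguaaauaggauCGGAGGga
mtr-miR5287b: ugcuuauaauagugauCGGAGGgu
The last, mtr-miR5287b, is the only lower sequence outside the families from which the stretch was derived that holds it, and had a log2 fold change of -0.82, a call lost without AS1, DW1 or DW2. In all, 6 of the 15 distinct lower sequences, none of the 30 higher ones and 1 of 36 tested but not called had the stretch on the strand printed. Of the 6, all but mtr-miR5287b hold it by construction, so the contrast between these groups is built in and is no result. Over all 83 sequences it was 8.43%. The sequence tables list mainly miRNAs that the study called in a treatment, so these shares do not stand for all known miRNAs, and nothing about origin follows from the match.

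Other called fallers named here were rare or predicted. mtr-miR5208d had 11.1, 17.9 and 21.6 CPM in alkali and 51.0, 35.6 and 23.3 CPM in distilled water, and mtr-miR5207 had 19.4, 23.2 and 23.1 CPM and 59.5, 47.7 and 29.9 CPM. In both cases DW3 lay close to the alkali libraries, and the calls (log2 fold changes -1.13 and -1.06) were lost without DW1. The other 3 miR5208 members had log2 fold changes of -0.46 to -0.34 and were not called. mtr-miR2628 fell to 4.40 ± 0.904 CPM in alkali, against 9.16 ± 0.785 CPM in distilled water (SD, n = 3 each), a log2 fold change of -1.07 (standard error 0.33, adjusted p = 0.0281 from edgeR). Its call was lost without AS1, AS2, DW1 or DW2 and with DESeq2.

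Of the 196 predicted miRNAs tested, 7 were higher and 33 lower, where 8.66% and 8.5% of all miRNAs tested were. The lower calls followed length, since 30 of the 33 were among the 144 predicted entries of 23 to 24 nt. The 52 predicted entries of 18 to 22 nt had 6 higher and 3 lower. unconservative_2_21689, a 22-nt entry, had 143, 201 and 232 CPM in alkali and 586, 421 and 334.8 CPM in distilled water, a log2 fold change of -1.22 (standard error 0.225, adjusted p = 0.000522 from edgeR). unconservative_2_19893 (24 nt) was at 69.1 to 109.99 CPM in alkali and 139.8 to 241 CPM in distilled water, and unconservative_3_38545 (24 nt) at 76.5 to 92.1 CPM and 146 to 169 CPM. Their log2 fold changes were -1.05 and -0.83, and all 3 passed in every fit. The number of lower predicted entries was 8 without AS1 or without DW1, 6 without DW2, 58 without DW3 and 14 with DESeq2.

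Both arms of 37 precursors were tested, and their changes could be set side by side. The sign was the same for 32 of the 37, and the median gap between the arms was 0.17 on the log2 scale. The 37 are not all separate measurements, since several miR2592 precursors had the same values in both arms. Both arms were called in 6 precursors, higher in miR1510b, miR156b, miR156c, miR156h and miR156i and lower in miR398a. The 5p arms of miR156b, miR156c and miR156i carry 1 sequence, so their 5p calls are not separate. In miR156h both calls were lost without AS1 or without DW1, and in miR1510b the 5p call was lost without AS1 and both calls without AS1 and DW1. A single arm was called in 5, and no precursor had arms called in opposite directions. miR156d had the widest gap, 1.36. Its 5p arm rose, at 8126 to 12968 CPM in alkali and 3485 to 6369 CPM in distilled water, while the 3p arm, at 13.6, 23.2 and 29.7 CPM in alkali and 34.0, 24.3 and 20.9 CPM in distilled water, had a log2 fold change of -0.26 (adjusted p = 0.437 from edgeR) that turned to 0.04 without DW1. The 5p arm shares its sequence with other loci, so its reads need not come from this precursor. In miR171e the 3p arm fell, and the 5p arm, at 91.2 to 113 CPM in alkali and 104 to 166 CPM in distilled water, had a log2 fold change of -0.45 (adjusted p = 0.0871 from edgeR). The difference between arms was not tested. In miR2086 and miR5558 the arms changed nearly alike, by 0.59 (5p) and 0.57 (3p) and by 0.69 (5p) and 0.55 (3p), and only the 5p arm exceeded the fold threshold. The call of mtr-miR2086-5p was lost in 9 of the 18 other fits, and that of mtr-miR5558-5p without DW2 and with the libraries scaled by clean reads.

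**Figure D5:**
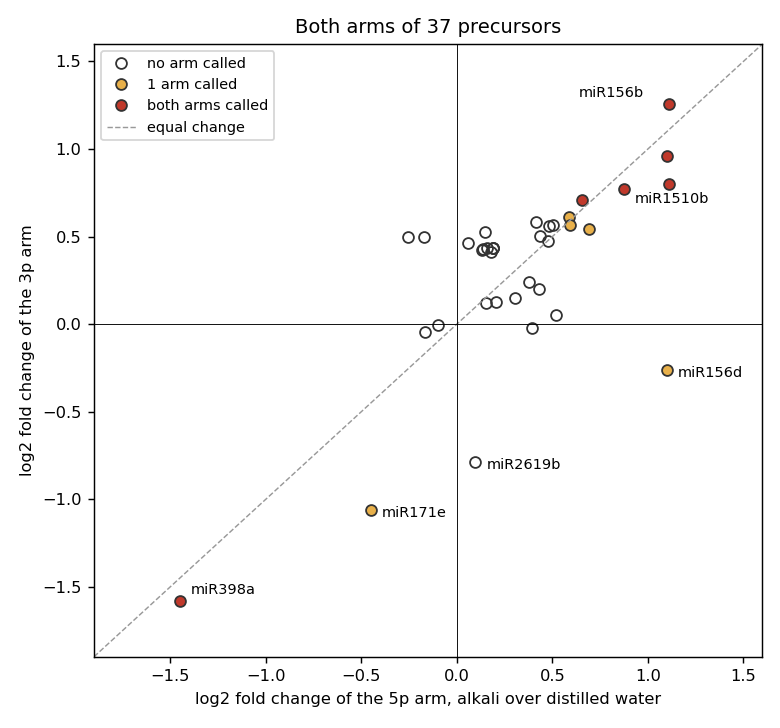
Log2 fold change in alkali over distilled water of the 5p arm (horizontal) and of the 3p arm (vertical) of 37 precursors, with red for both arms called, yellow for 1 arm called, open for none, and a dashed line of equal change. Points for miR398a (-1.45, -1.58) and miR156b (1.11, 1.26) lie near the line, and miR156d (1.102, -0.26) lies far from it.

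The most abundant miRNAs did not pass the test. mtr-miR5213-5p, a legume miRNA that took 39.4% to 43.4% of the counts in alkali and 33.6% to 51.8% in distilled water, had a log2 fold change of 0.38 (adjusted p = 0.254 from edgeR). Its mean share was 41.3% in alkali and 43.2% in distilled water, so it was not higher as a plain share of counts. mtr-miR159a, which represses GAMYB-like factors, was at 304827, 231874 and 217865 CPM in alkali and 141663, 115543 and 226273 CPM in distilled water. The libraries overlapped through DW3, and the adjusted p was 0.0704 from edgeR. None of the 9 members of miR159 and miR319 (which represses TCP factors) was called, nor any of the 8 of miR166 (HD-ZIP III factors), the 4 of miR162 and miR168 (Dicer-like and Argonaute mRNAs) or the 4 of miR396 (growth-regulating factors). Without DW3 5 of miR159 and miR319, 7 of miR166 and 3 of miR162 and miR168 were higher, and DESeq2 called 5, 6 and 3. mtr-miR166a, mtr-miR168c-3p and mtr-miR319a-3p had log2 fold changes of 0.57, 0.47 and 0.50. Of 68 miR2592 members none was called, with a median of 0.35, and none of 15 miR2111 members, with a median of -0.29. The 21 miR399 entries, which act in phosphate starvation, were too rare to test, with 49 reads in all alkali libraries and 52 in all distilled water libraries.

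Of the 258 entries that were not tested, 46 had no read in the 6 libraries. A further 4 had reads in all 3 alkali libraries and none in distilled water, and 4 the reverse. No untested entry exceeded 17 reads in any of the 6 libraries.

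Set directly against salt, which differs from alkali in its ions, its concentration and its pH (weakly acidic, where the alkali solution is basic), 22 miRNAs were higher in alkali (3.4% of those tested) and 4 lower (0.618%), together 4.02%, in the same fit. The comparison equals the difference between the changes of both treatments against distilled water. Of the 22, 12 were the tested miR395 members, which hold only 4 distinct count profiles. All but mtr-miR395a passed the filter on low counts only through the alkali libraries, so their number is no support here either. mtr-miR395a was at 38.0 to 63.9 CPM in alkali and 1.11 to 2.05 CPM in salt, which did not exceed the distilled water libraries. mtr-miR398b was at 35.3 to 51.2 CPM in alkali and 7.33 to 12.02 CPM in salt, and mtr-miR408-3p at 6.60 to 10.999 CPM in alkali and 2.11 to 3.22 CPM in salt, so that both were higher than in salt without having passed against distilled water. mtr-miR397-5p, the remaining uncalled copper miRNA apart from mtr-miR398c, had a log2 fold change of 0.04 over salt (adjusted p = 0.967 from edgeR). mtr-miR5232 was at 1929 to 2594 CPM in alkali and 778 to 1238 CPM in salt. The 4 that were lower than in salt were mtr-miR5205a, mtr-miR5205b, mtr-miR5277 and mtr-miR5283, all of 23 to 24 nt, and each of these calls was lost without any 1 of AS1, AS2 and SS3. Leaving out 1 library at a time gave 18 to 27 higher and 0 to 36 lower, with the 36 in the fit without AS3.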

How the data were processed

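Small RNAs of 9 seedling libraries were sequenced by the authors, who trimmed the reads, aligned them with Bowtie and assigned them to known and predicted miRNAs. The deposited counts are whole reads per miRNA entry, not normalized. A second deposited table holds these counts divided by the library total and was not used. All columns were matched to samples (0 unmatched). The submitters' processing notes name DESeq 1.10.1, whose results were not used here.

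Entries were filtered with filterByExpr (minimum count 10), scaled by TMM and fitted over all 9 libraries with edgeR 4.0.16 in R 4.3.3 (limma 3.58.1 installed). A call required a fold change above 1.5 with an adjusted p below 0.05. Standard errors were the log2 fold change divided by the square root of F. Principal components used log2 CPM with a prior count of 2. Counting intervals cover counting error only. The scripts were tested on simulated data.

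Named miRNAs were the 10 strongest non-overlapping calls in each direction, 2 members of each family list, the most abundant entries, precursors with a called arm and the miRNAs that the study singled out. mtr-miR5749, mtr-miR5277, mtr-miR5283, mtr-miR5287b, mtr-miR5207, mtr-miR171b, mtr-miR171d, mtr-miR171f, mtr-miR397-5p, mtr-miR156g-5p, the miR5284 entries, unconservative_2_19893, unconservative_3_38545 and unconservative_4_45654 are outside that rule and were chosen after their values were seen. Members and lists were chosen with earlier results of these data known. Sequences came from the study's supplementary tables. Alternatives were DESeq2 1.42.0, other scalings and filters (100 reads in 3 libraries, or none), a replicate block, other thresholds, identical entries counted once, and fits without single libraries or without AS1 and DW1.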

Additional observations from a re-analysis of the deposited data

Results flagged for a closer look

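The change against distilled water differed between alkali and salt for these miRNAs, by edgeR's quasi-likelihood test of alkali against salt in the fit of all 9 libraries. The log2 fold change of alkali over salt was 5.07 for mtr-miR395a (adjusted p = 2.43e-10 from edgeR), 4.29 for mtr-miR395c (adjusted p = 2.76e-05) and 4.25 for mtr-miR395g (adjusted p = 0.000138). mtr-miR395c and mtr-miR395g passed the filter on low counts only through the alkali libraries, so their p-values are no support of their own. The log2 fold change over salt was 2.16 for mtr-miR398b (adjusted p = 1.37e-06 from edgeR) and 1.95 for mtr-miR408-3p (adjusted p = 0.000349). Neither passed against distilled water. For mtr-miR5232 the log2 fold change over salt was 1.17 (adjusted p = 0.000402 from edgeR). For unconservative_1_30619 it was 0.81 (adjusted p = 0.0099 from edgeR), a call lost without AS1, SS1 or SS3.

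For mtr-miR156g-3p the log2 fold change was 0.97 (adjusted p = 0.0165 from edgeR) and for mtr-miR156g-5p 0.82 (adjusted p = 0.00628), both lost without SS3 and the first also without AS1 or AS2. The lower ones were mtr-miR5283 at -0.88 (adjusted p = 0.0165 from edgeR), mtr-miR5277 at -0.76 (adjusted p = 0.0194), mtr-miR5205a at -0.67 (adjusted p = 0.019) and mtr-miR5205b at -0.61 (adjusted p = 0.0446), each lost without any 1 of AS1, AS2 and SS3.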

How the results depend on the processing

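Against distilled water, the 56 higher and 55 lower calls became 88 and 36 with DESeq2, 35 and 76 with libraries scaled by clean reads, 30 and 63 with at least 100 reads in 3 libraries, 63 and 93 with an unadjusted p, and 28 and 14 without AS1 and DW1. Leaving out single libraries gave 31 to 106 higher and 14 to 105 lower. Against salt, the 22 higher and 4 lower became 7 and 1 with DESeq2, which gave 17 of these 26 no adjusted p, 8 and 2 with at least 100 reads, 40 and 20 with an unadjusted p, and 13 and 3 with identical entries counted once, a setting that tests fewer entries. Leaving out single libraries gave 18 to 27 higher and 0 to 36 lower. The cause of these shifts was not tested beyond what each setting itself changes.

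Same-numbered alkali and distilled water libraries did not deviate together (correlations -0.585, 0.0604 and -0.379). This check cannot exclude that the numbers pair the samples, since deviations from a group mean are tied to each other. With a replicate block 44 were higher and 40 lower against distilled water, and 22 higher and 1 lower against salt. The median log2 fold change of the miRNAs tested moved by 0.11 with DESeq2, 0.1 with its size factors and 0.11 without DW1. With the filter of 100 reads it moved by 0.12, but over only 380 miRNAs. That value mixes the change of entries with any change of scale.

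Only uncalled miRNAs changed sign among those named. The log2 fold change of mtr-miR398b was -0.015 with clean reads, -0.026 with at least 100 reads, -0.22 without AS1 and DW1, and between -0.103 and 0.22 without single libraries (-0.027 without DW1). That of mtr-miR156d-3p was 0.24 without AS1 and DW1, and between -0.45 and 0.037 without single libraries. Depth limits the rare entries, since no untested one exceeded 17 reads in an alkali or distilled water library.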

Other observations

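All 8 tested miR5284 entries had negative log2 fold changes in alkali against distilled water and none was called. mtr-miR5284c was at 22.3, 32.8 and 53.0 CPM in alkali and 111, 60.6 and 43.0 CPM in distilled water, just short of the threshold (adjusted p = 0.0601 from edgeR), so that AS3 lay above DW3. unconservative_4_45654 was at 181, 192 and 312 CPM in alkali and 61.5, 96.2 and 135 CPM in distilled water without overlap, with a log2 fold change of 1.23 (standard error 0.775, adjusted p = 0.255 from edgeR). Its salt libraries ranged widely, at 29.5, 237 and 285 CPM, and they enter the estimate of the spread. No reason for the missing call is drawn from this.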
